A study of Boehmeria nivea with 12 samples.

Results

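Water-cultured stems of Zhongzhu no 2 (Z2) were compared with those of another ramie cultivar, Huazhu no 4 (H4), after 10 days in tap water that was renewed at intervals. Ramie (Boehmeria nivea) is a fiber crop of the nettle family that is propagated from cuttings. The comparison took 6 of the 12 libraries of the series, chosen by cultivar and treatment alone: 3 from Z2 (Z2T) and 3 from H4 (H4T). Each water-cultured library came from the submerged piece of stem of lateral branches, 1 branch to a flask, and pooled 5 plants. The other 6 libraries came from stems taken directly off greenhouse plants with no time in water, 3 from Z2 (Z2CK) and 3 from H4 (H4CK), and are used here only to describe the same transcripts in untreated stems. The question was which transcripts differed between the cultivars while roots were being formed on the stem.

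Adventitious roots arise from tissue that is not root, such as the stem of a cutting, where cells near the vascular tissue return to division and organise a root primordium. Auxin is the main hormone known to promote this, and ethylene, jasmonate, cytokinin and the supply of sugar are known to modulate it. Cultivars differ in their alleles, and an assembly made from the reads of several plants can hold separate sequences for the alleles of a gene. The table gives expression for 66881 unigenes, groups of transcripts built from reads alone with no genome as a guide. It pairs 0 of their identifiers with a gene name, so no pathway, hormone gene or cell type marker could be looked up, and the labelled tissue could not be checked by markers. Unigenes are therefore described by level, by pattern across libraries and by the Trinity component they belong to, a component being a set of transcripts that the assembler joined through shared sequence. In bulk stem, fewer cells of a type and less RNA per cell cannot be told apart.

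Values are FPKM, fragments per kilobase of transcript, scaled to the size of the library. They summed to between 934426 and 1061225 in the 6 water-cultured libraries. Read counts are not in the table. A rough estimate, from the commonest ratio of FPKM among unigenes above 0 in at most 4 libraries, put the depth of the other 5 at 0.986 to 1.23 times that of H4T1, but rested on as few as 6 unigenes. It put H4T3 at 1.04 and Z2T1 at 0.986. The clean reads per library that the paper reports are ordered otherwise, with H4T3 below H4T1 and Z2T1 above it. The number of unigenes above 0 was 32751, 34107 and 33373 in H4T and 30586, 42291 and 37887 in Z2T. The library labelled Z2T1 was thus the lowest of the 6 and the other Z2T libraries were the highest. At an FPKM of 1 or more the numbers were 24201, 24727 and 24881 in H4T and 22067, 32342 and 28214 in Z2T. With 6 libraries the cultivars overlapped in both measures (two-sided exact permutation test, p = 0.4 for either, where 0.1 is the smallest p possible, and adjusted exact p = 0.4 over the 4 tests run). Without Z2T1 both Z2T libraries lay above all H4T libraries in both measures. The exact permutation test then gave p = 0.2, which is the smallest it can give with 5 libraries, so it could not reach 0.05 and says nothing about whether the cultivars differed.

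The library labelled Z2T1 went against its label. Pearson's r of log2(FPKM + 1), taken across 27316 unigenes that are not independent of each other, was 0.955 between Z2T2 and Z2T3 and 0.944 to 0.952 within H4T. For the library labelled Z2T1, r was 0.793 and 0.795 with the other Z2T libraries, 0.879 to 0.886 with H4T, and 0.968 and 0.964 with H4CK2 and H4CK3. The label was then checked on unigenes chosen from the Z2CK and H4T libraries alone. The first set held 331 unigenes that reached an FPKM of 1 in every Z2CK library and were listed at 0 in every H4T library. Of these, 290 (87.6%) were above 0 in Z2T2 and 273 (82.5%) in Z2T3, but 40 (12.1%) in the library labelled Z2T1, as many as in H4CK2. In the reverse set of 403 unigenes, on in all H4T and listed at 0 in all Z2CK libraries, 273 (67.7%) were above 0 in the library labelled Z2T1, against 129 (32.0%) in Z2T2 and 130 (32.3%) in Z2T3. The library labelled H4CK1 showed the opposite departure, with 285 (86.1%) of the first set and 124 (30.8%) of the second above 0. Its r was 0.959 and 0.949 with Z2T2 and Z2T3, and 0.829 and 0.831 with H4CK2 and H4CK3. Whether the libraries labelled Z2T1 and H4CK1 were exchanged was not tested. If they were, the library labelled Z2T1 would be an untreated H4 stem and that labelled H4CK1 a water-cultured Z2 stem, and the values for 6 libraries and for 3 H4CK libraries would mix the groups. Labels were kept as deposited, and the counts of DEGs, on/off and graded unigenes are given for all 6 libraries and again without Z2T1.

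**Figure D1:**
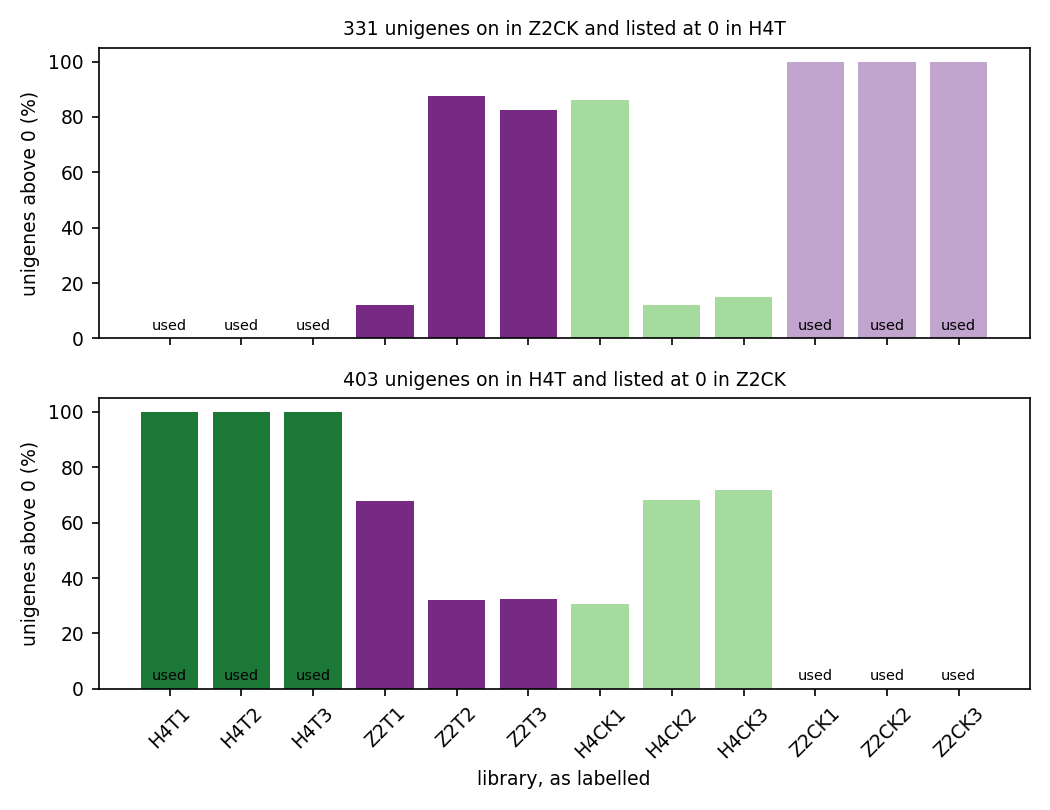
Percent of unigenes above 0 (vertical axis) in each of the 12 libraries (horizontal axis, as labelled) for 331 unigenes on in Z2CK and listed at 0 in H4T (upper panel) and for 403 unigenes on in H4T and listed at 0 in Z2CK (lower panel); "used" marks the 6 libraries that chose the unigenes. In the upper panel Z2T1 stands at 12.1% beside 87.6% and 82.5% in Z2T2 and Z2T3, and H4CK1 at 86.1%.

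Differences between the cultivars were called with limma on log2(FPKM + 1), with p-values adjusted by Benjamini and Hochberg over all unigenes that reached an FPKM of 1 in at least 2 of the libraries compared. A DEG had an adjusted p under 0.001 and an absolute log2 difference of at least 2, the thresholds of the study's methods. The paper's results section instead states a fold change of at least 2. With all 6 libraries, 27316 unigenes were tested and 0 passed (0% in either direction), although 3294 (12.1%) had an unadjusted p under 0.05. Without Z2T1, 26610 unigenes were tested, 9024 (33.9%) had an unadjusted p under 0.05, and 39 (0.147%) were DEGs, 23 higher in Z2T (0.0864%) and 16 lower (0.0601%). These calls were fragile, since leaving out any further library (H4T1, H4T2, H4T3, Z2T2 or Z2T3) left 0 higher and 1 lower. The median standard error of a log2 difference was 0.33 with 6 libraries and 0.21 without Z2T1. The spread between libraries, as the median SD of the log2 values, was 0.21 in H4T, 0.44 in Z2T and 0.15 between Z2T2 and Z2T3. Counted without a test, the libraries of the cultivars did not overlap for 1719 unigenes higher in Z2T (6.29%) and 3759 lower (13.8%) with 6 libraries, and for 6951 (26.1%) and 6537 (24.6%) without Z2T1. Of all possible orders of the libraries, a share of 0.1 has no overlap, both directions together, with 6 libraries and 0.2 with 5. The counts with and without Z2T1 are therefore not directly comparable.

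Most of the 39 DEGs were at or near 0 in 1 cultivar. Of the 23 higher in Z2T, 7 were listed at 0 in all 3 H4T libraries, and 9 of the 16 graded ones, those above 0 in both cultivars, stayed under an FPKM of 1 in every H4T library. Of the 16 lower in Z2T, 11 were listed at 0 in Z2T2 and Z2T3 and 4 of the 5 graded ones stayed under 1 in both. The 7 and the 11 passed the filter only through the cultivar that had them, so their calls are no support for a difference. On the side where they were high, the 39 ranged from an FPKM of 17.2 to 2013. The graded DEGs higher in Z2T had log2 differences of 3.02 to 9.53 (median 5.20, median standard error 0.16), and those lower fell by 3.78 to 9.18 (median standard error 0.15). The 39 belonged to 20 Trinity components among those higher and 14 among those lower, so some may share sequence and are not all separate observations. With Z2T1 included, all 39 kept their direction and 24 had an unadjusted p under 0.05 from limma, 13 higher and 11 lower. All the other libraries of that fit had chosen the 39 for a large difference, so neither count is a test of them.

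The library labelled Z2T1 had no part in choosing these 39 unigenes. It lay on the side of the Z2T libraries, past the midpoint between the means of H4T and of Z2T2 and Z2T3, for 1 of the 23 higher and 1 of the 16 lower, against 25.5% of all unigenes with a positive difference and 55.2% of those with a negative one. The library labelled H4CK1 lay on the Z2T side for all 23 and all 16, against 59.3% and 68.5% of all unigenes. The 3 Z2CK libraries did so for 21 of the 23 and for all 16, against 41.7% to 48.8% and 57.2% to 63.1%.

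Most of these differences were also present without water culture. Set against H4CK2 and H4CK3, Z2CK was at least 2-fold higher for 21 of the 23 DEGs higher in Z2T (91.3%, against 9.58% of all unigenes tested) and at least 2-fold lower for 15 of the 16 lower (93.8%, against 7.40%). The median log2 difference between untreated stems was 5.14 for the former and -4.75 for the latter, against 0.04 over all unigenes tested. With H4CK1 included the medians were 3.20 and -3.19, and the counts were 21 of 23 and 16 of 16. The 3 exceptions without H4CK1 were 2 DEGs higher in Z2T that were listed at 0 in all 3 Z2CK libraries, and the graded DEG named below that was lower.

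**Figure D2:**
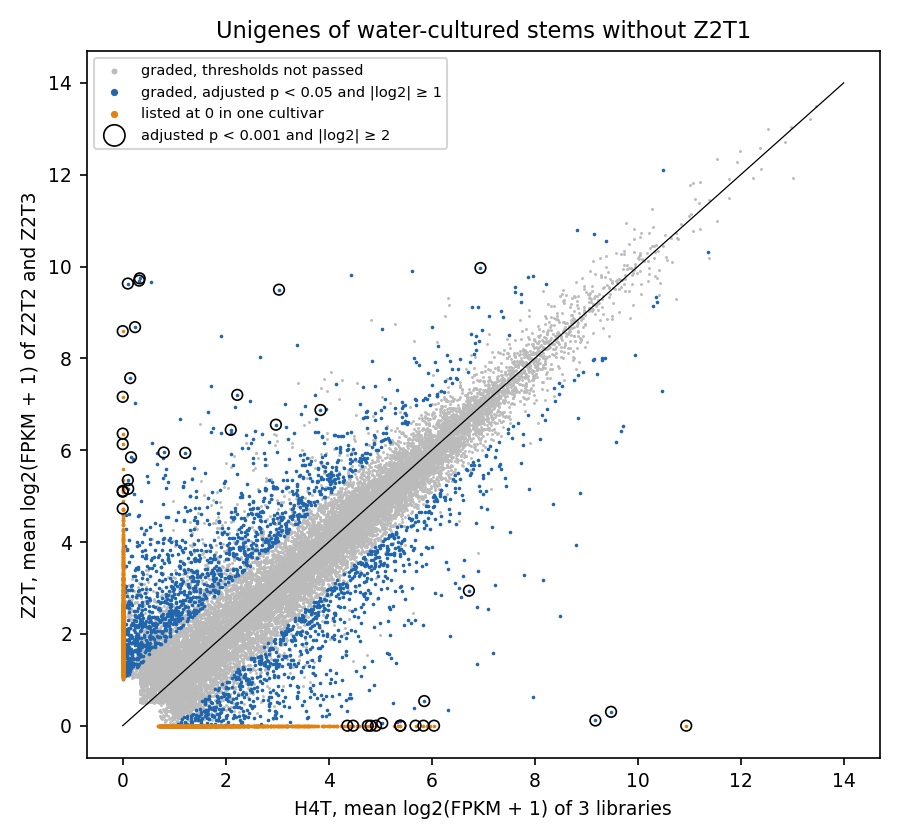
Mean log2(FPKM + 1) in the 3 H4T libraries (horizontal axis) and in Z2T2 and Z2T3 (vertical axis) for the 26610 unigenes tested without Z2T1, 1 point a unigene; the line marks equal values orange points are on/off unigenes, blue points graded ones with an adjusted p under 0.05 and at least 2-fold, and circles the 39 DEGs. Most circles lie along or near the axes, where a unigene is high in 1 cultivar and near 0 in the other.

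A pair of graded unigenes and a pair of on/off ones are named, by a rule set out with the methods. TRINITY_DN42438_c1_g4 had an FPKM of 8.08, 5.53 and 8.29 in H4T, and of 881 and 591 in Z2T2 and Z2T3, but of 9.94 in the library labelled Z2T1. All 3 Z2T libraries lay above H4T, but Z2T1 only just so. Without that library the log2 difference was 6.46 (standard error 0.24, adjusted p = 0.000864 from limma, 0.000557 to 0.0455 over 19 alternatives). With it the difference was 4.45 (standard error 1.65, adjusted p = 0.368 from limma, 0.000864 to 0.716 over 20 alternatives). The 0.000864 came from leaving Z2T1 out, and with Z2T1 kept the lowest was 0.277 from limma. In untreated stems TRINITY_DN42438_c1_g4 stood at 1524, 985 and 983 in Z2CK, at 9.12 and 13.3 in H4CK2 and H4CK3, and at 842 in the library labelled H4CK1.

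TRINITY_DN37051_c1_g1 was the reverse case and the only graded DEG lower in Z2T whose 6 libraries were all above 0 and did not overlap. Its FPKM was 99.8, 102 and 112 in H4T and 2.54, 7.50 and 5.93 in Z2T. Here the library labelled Z2T1 was the lowest of the Z2T libraries and lay far from H4T. The log2 difference was -3.78 without Z2T1 (standard error 0.12, adjusted p = 0.000679 from limma, 0.000493 to 0.0205 over 19 alternatives). With Z2T1 it was -4.15 (standard error 0.33, adjusted p = 0.0621 from limma, 0.000679 to 0.431 over 20 alternatives). Again the 0.000679 came from leaving Z2T1 out, and with Z2T1 kept the lowest was 0.00863 from limma. Untreated stems were low in both cultivars, at 8.85, 3.27 and 0.87 in H4CK and 0.27, 0.46 and 0.72 in Z2CK. Whether the cultivar difference in TRINITY_DN37051_c1_g1 changed with water culture was tested as an interaction in limma, which gave -2.61 (adjusted p = 0.296) over 12 libraries and -2.84 (adjusted p = 0.0156) without Z2T1 and H4CK1. For TRINITY_DN42438_c1_g4 the same test gave -0.07 (adjusted p = 0.998) and -0.10 (adjusted p = 0.907). Both unigenes were chosen for their difference in water-cultured stems, which is part of the interaction. These p-values therefore describe them without supporting a change with water culture.

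TRINITY_DN37150_c1_g2 was listed at 0 in all 3 H4T libraries and had an FPKM of 31.0, 24.4 and 15.9 in Z2T. It was above 0 in all 6 untreated libraries, at 96.9, 12.0 and 1.89 in H4CK and 68.8, 38.1 and 9.23 in Z2CK. In the 6 libraries 4 unigenes (0.0146%) had an adjusted p under 0.05 from limma and a difference of at least 2-fold, 1 higher in Z2T (0.00366%) and 3 lower (0.011%). TRINITY_DN37150_c1_g2 was the 1 higher, at an adjusted p of 0.0296 from limma (0.00143, with Z2T1 left out, to 0.431 over 20 alternatives). TRINITY_DN33386_c1_g1 was listed at 0 in all 3 Z2T libraries and had an FPKM of 16.4, 22.3 and 15.8 in H4T. Its untreated values were mixed, at 4.63, 0 and 5.03 in H4CK and 13.5, 0 and 0 in Z2CK. It had the smallest adjusted p of the 3 lower in Z2T, 0.0278 from limma (0.00123, with Z2T1 left out, to 0.431 over 20 alternatives). Both on/off unigenes were chosen for a 0 in every library of 1 cultivar and passed the filter only through the other, so they had to differ, and their adjusted p-values describe them without supporting the difference. Their interactions with water culture did not pass in limma, at an adjusted p of 0.490 and 0.424 over 12 libraries and of 0.361 and 0.211 without Z2T1 and H4CK1.

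**Figure D3:**
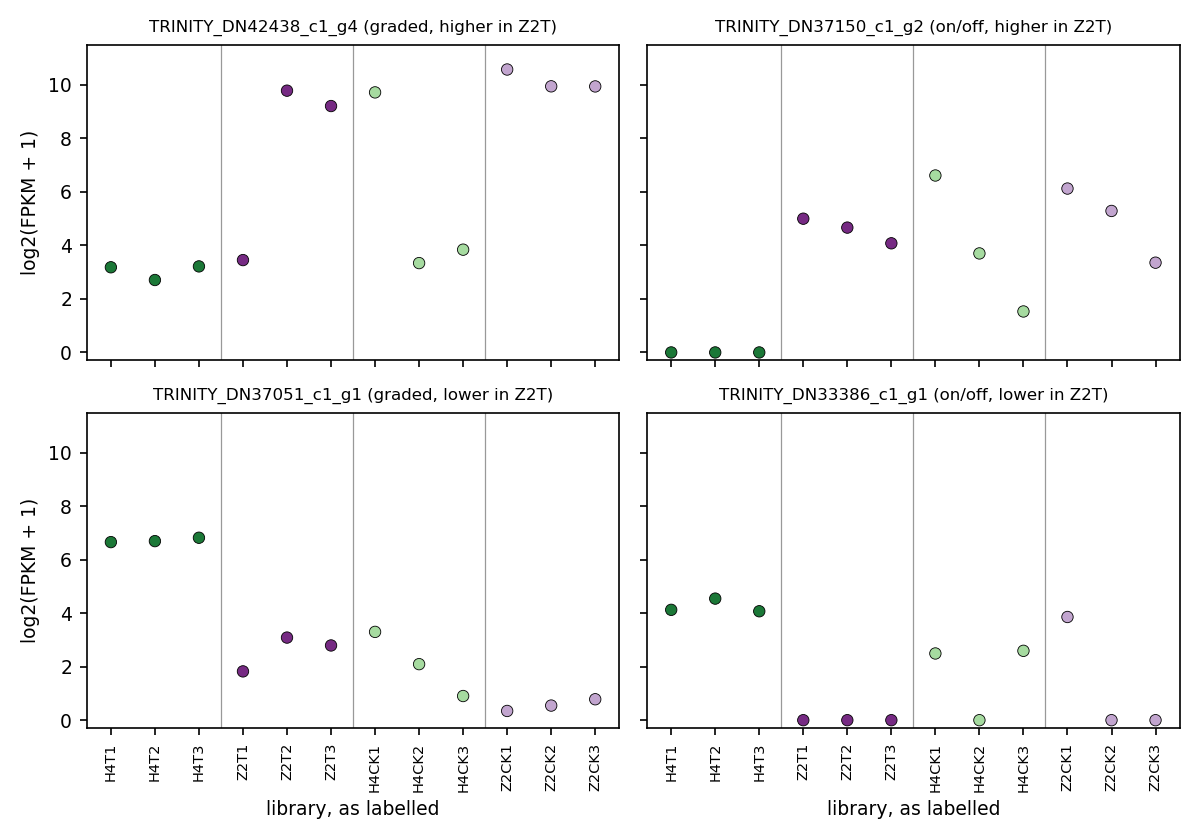
Expression as log2(FPKM + 1) (vertical axis) of the 4 named unigenes in the 12 libraries (horizontal axis, as labelled), 1 point a library, green for H4 and purple for Z2 and paler for untreated stems. For TRINITY_DN42438_c1_g4 the library labelled Z2T1, at an FPKM of 9.94, sits with H4T and not with Z2T2 and Z2T3, and for TRINITY_DN37051_c1_g1 the 3 H4T libraries, at 99.8 to 112, stand above the other 9.

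Unigenes listed at 0 in 1 cultivar were counted apart from graded ones, since no fold can be given against a group at 0 in a table without counts. With no read counts per unigene, how low a level a 0 allows is not known either. Without Z2T1, 919 unigenes (3.45% of those tested) were listed at 0 in all 3 H4T libraries and 903 (3.39%) at 0 in Z2T2 and Z2T3. With all 6 libraries the numbers were 1014 (3.71%) and 439 (1.61%). The 439 were all among the 903, and the other 464 of the 903 were above 0 in the library labelled Z2T1, while 43 of the 919 were above 0 there. The counts also moved with other libraries. With 6 libraries, leaving out Z2T2 or Z2T3 gave 60 and 77 listed at 0 in H4T, and leaving out H4T1, H4T2 or H4T3 gave 169 to 190 listed at 0 in Z2T. Without Z2T1, leaving out H4T1, H4T2 or H4T3 gave 486 to 527 of the latter. These classes passed the filter through the cultivar that had them, so they had to differ, and their share is no test. The rules are also unequal, because the first class needed 3 values of 0 and an FPKM of 1 in both Z2T2 and Z2T3, while the second needed 2 values of 0 and an FPKM of 1 in any 2 H4T libraries. Where an FPKM of 1 was asked for in every library of the cultivar that had them, 919 and 316 were left, and at an FPKM of 5 in 2 libraries 154 and 202, so the order of the classes depended on the rule.

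Most on/off unigenes were weakly expressed where they were present. The median of the mean FPKM was 2.95 for the 919 unigenes listed at 0 in H4T (quartiles 1.82 and 5.21), and 668 (72.7%) were under 5. For the 903 unigenes listed at 0 in Z2T2 and Z2T3 it was 2.03 (quartiles 1.34 and 4.18), and 704 (78.0%) were under 5. Only 98 and 96 reached a mean FPKM of 10, and 5 and 6 reached 50. The highest of the former had an FPKM of 491 and 302 in Z2T2 and Z2T3 and of 255, 701 and 83.5 in Z2CK. It was listed at 0 in the library labelled Z2T1, in H4CK2 and in H4CK3, and stood at 449 in the library labelled H4CK1. The highest of the latter had an FPKM of 2013, 2006 and 1884 in H4T, 1867 and 2111 in H4CK2 and H4CK3, and 1894 in the library labelled Z2T1. It was listed at 0 in Z2T2, Z2T3, all 3 Z2CK libraries and the library labelled H4CK1. For both, each library was either high or at 0, with no value between.

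The untreated libraries divided the on/off unigenes further. Of the 903 listed at 0 in Z2T2 and Z2T3, 436 (48.3%) were also listed at 0 in all 3 Z2CK libraries while above 0 in H4CK2 or H4CK3, against 2.86% of all unigenes tested. A further 242 (26.8%) were at 0 in all 5 of these untreated libraries. With all 6 water-cultured libraries the order turned. Of the 439 listed at 0 in Z2T, 121 (27.6%) were in the former group, against 3.24% of all unigenes tested, and 211 (48.1%) in the latter. Of the 919 listed at 0 in H4T, 312 (33.9%) were also at 0 in H4CK2 and H4CK3 while above 0 in Z2CK, against 3.95% of all unigenes tested. The larger share, 530 (57.7%), was at 0 in the 5 untreated libraries, and was thus seen in Z2T2 and Z2T3 but in no untreated library other than H4CK1, where 253 of the 530 (47.7%) were above 0. Only 5 of the 530 (0.943%) were above 0 in the library labelled Z2T1. With all 6 water-cultured libraries, 331 (32.6%) of the 1014 listed at 0 in H4T were in the former group, against 4.06% of all. At 0 in the 5 untreated libraries were 559 (55.1%) of the 1014. Z2T2, Z2T3 and H4CK1 were also the libraries with the most unigenes above 0, at 42291, 37887 and 42401, against 30586 to 34107 in the other 9, and the part of this in the count of 530 was not tested. With H4CK1 counted, 460 (50.9%) of the 903 were on and off the same way in untreated stems, against 5.78% of all unigenes tested, and 43 (4.68%) of the 919, against 0.913%.

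**Figure D4:**
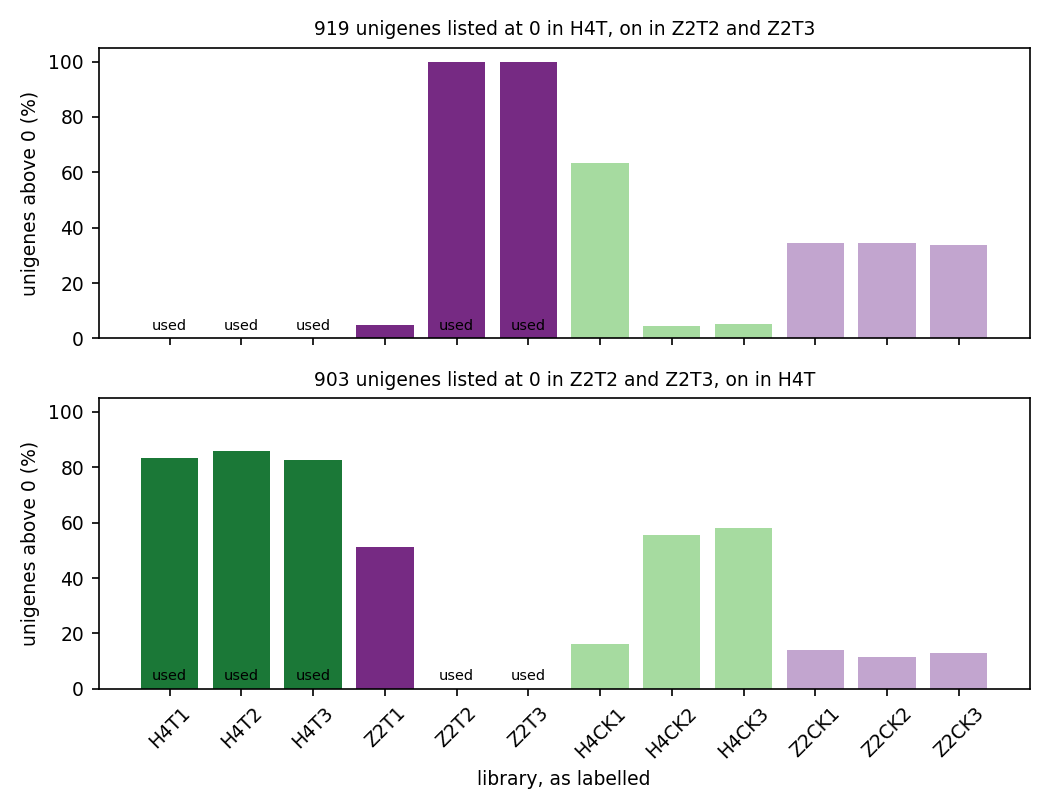
Percent of unigenes above 0 (vertical axis) in each of the 12 libraries (horizontal axis, as labelled) for 919 unigenes listed at 0 in H4T (upper panel) and 903 listed at 0 in Z2T2 and Z2T3 (lower panel); "used" marks libraries that chose the unigenes. Above 0 in the library labelled Z2T1 are 4.68% of the former and 51.4% of the latter, and in the library labelled H4CK1 63.4% and 16.2%.

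Trinity components were then compared. Of the 919 listed at 0 in H4T, 32 (3.48%) had a component partner listed at 0 in Z2T2 and Z2T3, close to the 3.28% of all unigenes tested. Of the 903, 29 (3.21%) had a partner listed at 0 in H4T, against 2.07% of all. A partner of the same kind was present for 56 (6.09%) of the 919, against 2.07% of all, and for 57 (6.31%) of the 903, against 3.28%. In all, 26 of 18834 components held both kinds. Any other tested unigene was in the component of 299 (32.5%) of the 919 and 476 (52.7%) of the 903, against 49.0% of all unigenes tested. With all 6 libraries, a partner of the same kind was present for 60 (5.92%) of the 1014 listed at 0 in H4T, against 2.36% of all. For the 439 listed at 0 in Z2T it was 4 (0.911%), against 1.37%, so their same-kind excess was seen only without Z2T1. Partners of the opposite kind were present for 15 (1.48%) of the 1014, against 1.37%, and 11 (2.51%) of the 439, against 2.36%. These shares are descriptions, since a component partner in the table depends on expression as well as on sequence.

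Among the 24788 unigenes above 0 in both cultivars without Z2T1, the median log2 difference was 0.01 and the median absolute difference 0.32, which is under 2-fold. At any p, 2463 (9.26% of those tested) were at least 2-fold higher in Z2T and 1364 (5.13%) at least 2-fold lower, on the log2(FPKM + 1) scale, which understates the change of low values. At least 4-fold, 676 (2.54%) were higher and 259 (0.973%) lower. With all 6 libraries and 25863 such unigenes the split turned, to 1285 (4.7%) higher and 1500 (5.49%) lower at 2-fold and to 170 (0.622%) and 274 (1%) at 4-fold. With 6 libraries and median-of-ratios scaling it was 1464 higher and 1299 lower at 2-fold. The direction in which most of these unigenes differed therefore depended on Z2T1 and, with 6 libraries, on the scaling.

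Graded differences were spread over all levels of expression. Without Z2T1, 22.5% of 10416 unigenes with a mean FPKM of 1 to 10 differed by at least 2-fold, 10.3% of 11253 between 10 and 100, and 9.70% of 1619 over 100. Among the last were 82 unigenes over 1000, which held 19.5% of all FPKM of the unigenes tested. Of these, 4 were at least 2-fold higher in Z2T and 7 at least 2-fold lower, with log2 differences between -1.46 and 1.62. None of the 82 reached 4-fold, while the on/off unigene at 1884 to 2013 described above was of the same abundance. With all 6 libraries, 0 of 80 such unigenes were at least 2-fold higher in Z2T and 13 lower.

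A wider set of DEGs was taken at an adjusted p under 0.05 and a difference of at least 2-fold. With all 6 libraries it held the 1 unigene higher and 3 lower given above, or 36 higher and 138 lower in a fit of all 4 groups. Without Z2T1 it held 3577 unigenes (13.4%), 2313 higher in Z2T (8.69%) and 1264 lower (4.75%). On/off unigenes made up 882 of those higher and 340 of those lower, which left 1431 and 924 graded ones. The on/off ones passed the filter only through the cultivar that had them, so their calls are no support for a difference. The filter also weighed on the 2 directions unequally. With a filter in 3 libraries, which no unigene at 0 in all H4T libraries can pass, the set held 1032 higher and 1214 lower. The median log2 difference of the graded ones was 1.63 for those higher (median standard error 0.25), and those lower fell by 1.46 (median standard error 0.22). With Z2T1 these medians were 0.99 and -1.21. The excess of higher over lower did not hold throughout. After quantile normalization 1197 graded ones were higher and 1249 lower, against 1282 and 1113 on the TPM scale and 1444 and 901 with median-of-ratios scaling. With only Z2T3 left in Z2T, 160 of the wider set were higher and 328 lower, and with only Z2T2 left 195 and 310, where the filter by construction drops unigenes found in that library alone.

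The graded unigenes of this wider set were followed into untreated stems. The 1431 higher in Z2T had a median FPKM of 11.6 in Z2T2 and Z2T3 and 1.83 in H4T. Untreated stems had 4.66 in Z2CK and 0.885 in H4CK2 and H4CK3, so that the untreated Z2 libraries lay between. The 924 lower in Z2T had 3.20 in Z2T2 and Z2T3 and 13.4 in H4T, beside 4.05 in Z2CK and 10.3 in H4CK2 and H4CK3. For them the untreated level was near the water-cultured level within each cultivar. Z2CK was at least 2-fold higher than H4CK2 and H4CK3 for 699 (48.8%) of the 1431, against 9.12% of all graded unigenes, and at least 2-fold lower for 445 (48.2%) of the 924, against 6.53%. Only 27 (1.89%) and 17 (1.84%) differed by 2-fold the other way. With H4CK1 included, the shares were 29.7% and 29.1%. The water-cultured levels chose these unigenes, so only the comparison of untreated stems, which shares no library with them, is independent of the choice.

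**Figure D5:**
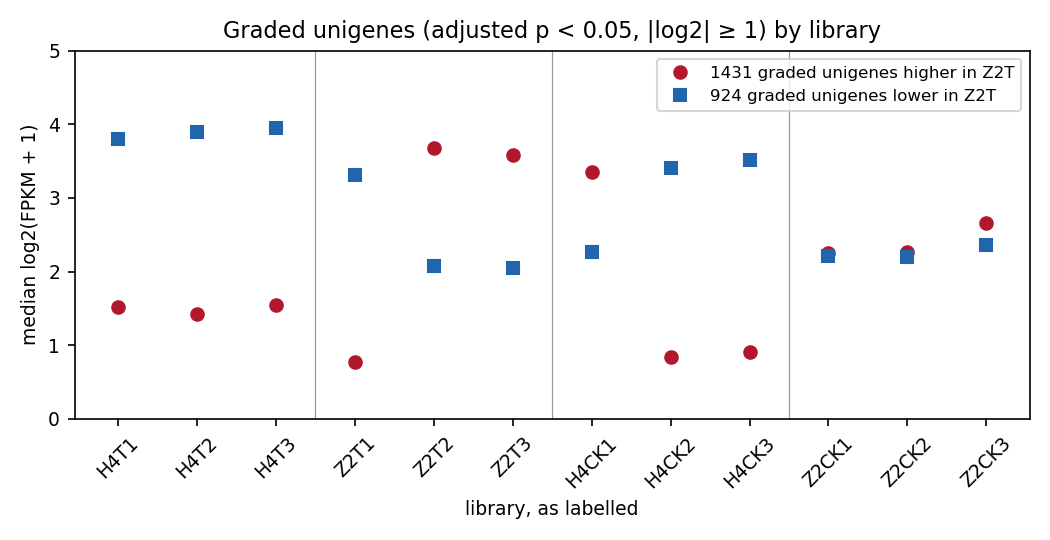
Median log2(FPKM + 1) (vertical axis) over 1431 graded unigenes higher in Z2T (circles) and 924 lower in Z2T (squares), called without Z2T1, in each of the 12 libraries (horizontal axis, as labelled). The library labelled Z2T1, which did not choose them, has medians of 0.77 and 3.32, below and above all values of Z2T2 and Z2T3, which are 3.59 to 3.67 and 2.04 to 2.08.

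Where the library labelled Z2T1 lay for the wider set was counted as for the 39 DEGs. It was on the Z2T side of the midpoint for 145 of the 2313 unigenes higher in Z2T (6.27%), against 25.5% of all 13515 unigenes with a positive difference. For the 1264 lower it was on that side for 435 (34.4%), against 55.2% of 13095 with a negative one. H4CK2 gave 5.92% and 32.2%, against 24.3% and 55.0%, and H4CK3 gave 7.18% and 30.2%, against 26.2% and 48.2%. The library labelled H4CK1 gave 74.6% and 92.2%, against 59.3% and 68.5%. The Z2CK libraries gave 82.0% to 84.5% of those lower, against 57.2% to 63.1%. For those higher they gave 40.9% to 45.1%, near the 41.7% to 48.8% of all unigenes. The p-values of the wider set rest on the spread within H4T and between those 2 libraries.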

How the data were processed

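Per the labels and the paper's methods, 12 libraries were made from poly(A) RNA of stems and sequenced as paired reads. The authors deposited 1 table of FPKM values, to 2 decimals, for Trinity unigenes. Assembly, filtering and read assignment for this table: not given in the sources used here. In the methods another route is described, in which the authors mapped reads to a ramie genome, computed FPKM with RSEM and called DEGs with DESeq2, and the labels name DESeq. FPKM values are not counts, so limma 3.58.1 in R 4.3.3 was used, applied to log2(FPKM + 1) with no further scaling and a prior variance that follows mean expression. Only the libraries compared entered a fit. A unigene was tested if it reached an FPKM of 1 in 2 or more of them, and p-values were adjusted by Benjamini and Hochberg. Columns were assigned by label, and 0 were left out. The fit was also run on simulated normal values with the same spread for every unigene and no deviant library. These data differ in both respects, so that run lends no support to the calls. Exact permutation tests used scipy 1.17.1 in Python 3.11.15.

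The unigenes named were, in each direction, the graded DEG with the largest difference without Z2T1 that was above 0 and not overlapping in all 6 libraries, and the on/off unigene with the highest minimum FPKM in the cultivar that had it. The highest members of the on/off classes were chosen after their values were seen. The comparison, the omission of Z2T1 and all rules were chosen with earlier results of these data known. Alternatives were the pseudocount, the filter, 3 scalings, the prior variance, a fit of all 4 groups, a replicate block, the thresholds, the definition of on and off, and each library left out.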

Additional observations from a re-analysis of the deposited data

Results flagged for a closer look

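In the library labelled H4CK1, which is in no comparison between the water-cultured stems, 86.1% of the 331 unigenes on in Z2CK and listed at 0 in H4T were above 0, a signal above the 12.1% and 15.1% of the other H4CK libraries. The groups of 3 libraries were too small to look for a single library far from the others by a critical value, and none of the 4 named unigenes had an adjusted p under 0.05 for the interaction of cultivar and water culture over 12 libraries (limma, 0.296 to 0.998). Without Z2T1 and H4CK1, TRINITY_DN37051_c1_g1 had an adjusted p of 0.0156 from limma for this interaction, and the other 3 had 0.211 to 0.907. All 4 were chosen for their difference in water-cultured stems, which is part of the interaction, so these p-values only describe them.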

How the results depend on the processing

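Weighting libraries by their estimated quality (array weights) was chosen after seeing the data. Counts are given as higher and lower in Z2T. With 6 libraries, where 0 and 0 passed, a fit of all groups gave 0 and 2 DEGs, an adjusted p of 0.05 gave 1 and 3, with the threshold at 4-fold or 2-fold, and the remaining settings, array weights included, gave 0 and 0. Leaving out 1 library gave 0 to 23 and 0 to 16, above 0 only without Z2T1. Without Z2T1, where 23 and 16 passed, a pseudocount of 0.1 gave 3 and 6 and one of 0.01 gave 0 and 1. No filter gave 6 and 3, a filter at an FPKM of 0.1 gave 9 and 9, and a filter in 3 libraries gave 15 and 30. The 2-fold threshold at an adjusted p under 0.001 gave 24 and 16. A constant prior variance gave 134 and 47 and a fit of all groups 82 and 6. An adjusted p of 0.05 gave 853 and 402, and this with 2-fold 2313 and 1264. The cause was not tested. The 3 scalings gave 19 to 31 and 17 to 23. Leaving out H4T1, H4T2 or H4T3 gave 0 and 1. Such a fit also has fewer libraries to estimate the spread from, so the loss is not traced to any 1 library. With Z2T2 or Z2T3 left out, the log2 difference of TRINITY_DN42438_c1_g4 was 6.17 and 6.75. Where 1 Z2T library was left, it was assumed to vary like H4T.

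The replicate block gave 0 and 0 DEGs without Z2T1 and 0 and 0 with 6 libraries. No source used here describes a link between same-numbered libraries beyond the number. Their deviations from the group means had an r of -0.03, 0.01 and 0.02 with 6 libraries, where Z2T1 enters every Z2T deviation. Without Z2T1, r was 0.116 for Z2T2 with H4T2 and -0.004 for Z2T3 with H4T3. Pairs with different numbers then had -0.116 to 0.110. These values neither show a link nor exclude one.

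With 6 libraries, the wider set of 1 and 3 became 36 and 138 with a fit of all groups. Without Z2T1, the wider set of 2313 and 1264 became 1330 and 863 with the block, 787 and 511 with a fit of all groups, 628 and 502 with no filter and 1032 and 1214 with a filter in 3 libraries. Leaving out 1 library gave 160 to 2348 higher and 310 to 1534 lower.

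Among on/off unigenes, listed at 0 in H4T and in Z2T, requiring presence in every library gave 21 and 53 with 6 libraries and, without Z2T1, 316 listed at 0 in Z2T. An FPKM of 5 gave 165 and 74, or 154 and 202 without Z2T1. Leaving out 1 library gave 60 to 1251 and 169 to 903 with 6 libraries, and 996 to 1116 and 486 to 1222 without Z2T1, where leaving out Z2T2 or Z2T3 cannot give the first. An upper limit of 0.1 in place of 0 moved no count by over 1.5 times. The 4 named unigenes kept their direction under every alternative run. They were chosen for libraries that did not overlap or for a 0 in 1 cultivar. Their direction could thus hardly turn, and keeping it is no support. Without read counts per unigene, how low a level a value of 0 allows is not known.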
